A study of Mus musculus with 4 samples.

Results

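The genes described here are 10 imprinted genes of the mouse that are expressed mainly from the maternal chromosome and lie outside the Cdkn1c cluster: Igf2r, Grb10, Meg3, H13, Gnas, Ube3a, Copg2, Asb4, Calcr and Ppp1r9a. They were chosen by name, and their probes were found by matching the accession printed for each probe to RefSeq transcripts. All 10 were matched, by 20 probes, among the 19747 gene symbols with a probe on the array. The data came from 4 one-colour Agilent arrays of mouse embryonic stem cells (ESCs) labelled female, in a series on the passage from G2 into mitosis in haploid ESCs. Haploid cells were hybridised to 2 arrays (line 1 and line 2), and diploid cells to the other 2 (also line 1 and line 2). Both groups are parthenogenetic: they come from an egg activated without sperm, so neither the haploid nor the diploid cells hold a paternal genome, and the arrays include no cells with a father. The labels give no genotype, treatment, culture time or age for either group, and no pairing of a haploid with a diploid line. The design text speaks of separate experiments for each cell type. Whether a line is 1 clone is not stated. The p-values below rest on how far the arrays of a group spread, a spread in part pooled over all features.

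Imprinted genes carry methylation marks set in the egg or the sperm, at control regions that keep a neighbouring gene active on only 1 parental chromosome. Such genes lie in clusters, in which maternally and paternally expressed genes share a control region. In a parthenogenetic cell every copy comes from the egg, and a diploid cell holds more maternal copies than a haploid one. Methylation was not measured here, so whether these cells kept the egg's marks was not tested. Several of these genes are imprinted in only some tissues: Ube3a is restricted to the maternal copy in neurons, Asb4, Calcr and Ppp1r9a are imprinted in certain tissues only, and Grb10 is expressed from the paternal copy in neurons. Each array was scaled to its own 75th percentile, so a value tells a probe's brightness relative to that array's other probes and not RNA per cell.

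Values are log2 of the processed signal minus the array's 75th percentile of it, so 0 is the brightness of the array's 75th percentile. The percentile was 526 to 553 intensity units on the haploid arrays and 617 to 907 on the diploid arrays, and 53.6% to 59.7% of probes on the haploid arrays and 55.1% to 65.0% on the diploid arrays were well above background by the scanner's flag. The arrays shared 1 slide and 1 scan day, and no spot was saturated. The 10 ESC markers, Pou5f1, Sox2 and Nanog among them, were well above background on every array, with a summed linear signal of 224 and 212 times the percentile in haploid ESCs and 197 and 171 in diploid ESCs. Pou5f1, the central pluripotency factor, stood at 3.38 and 3.33 in haploid ESCs and at 3.26 and 3.51 in diploid ESCs. Of the 10, 7 had differences (haploid minus diploid) above 0 and 3 below, none of them past the test described below. Tdgf1 (-0.51) and Nanog (-0.37) were among those below, and Dppa5a (0.35) and Zfp42 (0.33) among those above. Fibroblast markers were present as well, with 10 and 11 of 12 well above background in haploid ESCs and 10 and 11 of 12 in diploid ESCs. They summed to 26.4 and 22.1 in haploid ESCs against 18.0 and 15.5 in diploid ESCs, and of the 10 tested, 6 had differences above 0 and 4 below. Vim alone, at 3.90 and 3.74 in haploid ESCs and 3.43 and 3.32 in diploid ESCs, made up most of each linear sum. In bulk RNA, fewer cells of a type and less RNA per cell cannot be told apart.

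The promoters of the genes on which the results turn are shown first, because these genes differ in how many CpG sites their promoters offer for methylation. Whether a promoter window overlaps an imprinting control region was not tested. The windows are RefSeq's (build GRCm38.p6), 250 bases before to 50 after a transcription start, read 5′ to 3′ on the gene's own strand, with each CpG in capitals. Igf2r has a single window, which is CpG-rich, and all 4 windows of Gnas hold 15 CpGs or more. Ppp1r9a and Calcr each have 1 CpG-rich and 1 CpG-poorer window, of which the CpG-rich one is shown. Neither window of Meg3 or Asb4 reaches 15, and the upstream one is shown.
Igf2r, chr17:12769657-12769956, minus strand: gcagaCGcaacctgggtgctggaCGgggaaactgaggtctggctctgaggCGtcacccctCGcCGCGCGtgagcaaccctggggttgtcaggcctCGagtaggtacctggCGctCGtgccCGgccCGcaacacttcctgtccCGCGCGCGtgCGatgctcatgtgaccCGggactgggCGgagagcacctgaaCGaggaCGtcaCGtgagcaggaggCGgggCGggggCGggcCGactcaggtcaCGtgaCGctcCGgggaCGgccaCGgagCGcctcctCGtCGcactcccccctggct
Meg3, upstream window, chr12:109540746-109541045, plus strand: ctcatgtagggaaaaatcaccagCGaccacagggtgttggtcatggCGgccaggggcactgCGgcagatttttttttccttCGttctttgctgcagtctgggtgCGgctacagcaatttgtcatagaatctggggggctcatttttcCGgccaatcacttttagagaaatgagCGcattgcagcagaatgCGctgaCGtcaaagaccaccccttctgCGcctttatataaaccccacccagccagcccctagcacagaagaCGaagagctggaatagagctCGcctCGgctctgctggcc
Gnas, most upstream window, chr2:174284070-174284369, plus strand: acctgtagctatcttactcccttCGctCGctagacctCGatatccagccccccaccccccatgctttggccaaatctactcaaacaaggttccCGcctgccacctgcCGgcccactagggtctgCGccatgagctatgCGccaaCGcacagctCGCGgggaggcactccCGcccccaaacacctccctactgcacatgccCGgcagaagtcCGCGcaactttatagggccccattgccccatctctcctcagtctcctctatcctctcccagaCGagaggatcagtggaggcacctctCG
Gnas, most downstream window, chr2:174329756-174330055, plus strand: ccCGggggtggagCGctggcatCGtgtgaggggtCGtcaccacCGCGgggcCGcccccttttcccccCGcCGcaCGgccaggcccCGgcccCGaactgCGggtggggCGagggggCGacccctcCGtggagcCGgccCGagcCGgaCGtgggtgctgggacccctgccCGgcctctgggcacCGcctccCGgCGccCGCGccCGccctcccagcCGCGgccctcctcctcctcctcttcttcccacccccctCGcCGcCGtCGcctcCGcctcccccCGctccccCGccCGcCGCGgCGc
Ppp1r9a, downstream window, chr6:4903061-4903360, plus strand: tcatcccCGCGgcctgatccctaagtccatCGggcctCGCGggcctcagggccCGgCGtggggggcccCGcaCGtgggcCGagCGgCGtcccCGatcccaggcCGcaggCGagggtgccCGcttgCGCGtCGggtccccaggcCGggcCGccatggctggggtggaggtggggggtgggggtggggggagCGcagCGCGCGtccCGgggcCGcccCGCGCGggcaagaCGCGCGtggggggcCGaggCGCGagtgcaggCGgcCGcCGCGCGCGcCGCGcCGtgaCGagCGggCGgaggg
Asb4, upstream window, chr6:5383136-5383435, plus strand: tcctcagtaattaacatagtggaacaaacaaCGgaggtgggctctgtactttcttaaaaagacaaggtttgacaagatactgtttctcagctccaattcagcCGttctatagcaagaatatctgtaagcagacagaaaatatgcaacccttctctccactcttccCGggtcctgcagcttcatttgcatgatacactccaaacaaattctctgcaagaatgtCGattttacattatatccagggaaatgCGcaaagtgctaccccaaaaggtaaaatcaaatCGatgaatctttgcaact
Calcr, CpG-rich window, chr6:3763574-3763873, minus strand: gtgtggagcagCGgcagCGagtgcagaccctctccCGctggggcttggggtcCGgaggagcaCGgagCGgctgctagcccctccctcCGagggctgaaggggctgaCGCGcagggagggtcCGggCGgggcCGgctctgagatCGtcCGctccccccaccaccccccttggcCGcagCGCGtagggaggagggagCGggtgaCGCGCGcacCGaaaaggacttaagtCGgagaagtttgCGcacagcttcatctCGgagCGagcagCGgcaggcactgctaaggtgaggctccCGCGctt

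The 10 genes had 18 such windows, with 1 to 48 CpGs each, and 11 of the 18 held 15 or more, against 34.6% of all 32851 windows in the table, whose median was 7. The windows shown held 34 CpGs for Igf2r, 13 for Meg3, 16 and 40 for the upstream and downstream Gnas windows, 48 for Ppp1r9a, 6 for Asb4 and 29 for Calcr. The windows not shown held 10 for Ppp1r9a, 1 for Meg3, 27 and 28 for Gnas, 8 for Asb4 and 4 for Calcr. CpG content did not sort the genes by detection: Asb4, with no CpG-rich window, and Calcr, with 1, were the 2 genes that failed the filter on dim probes. The hexamer TGCCGC, which the imprint-keeping protein ZFP57 binds when methylated, was searched on both strands. It was found in 4 of the 18 windows, against 11.6% of all windows: in 1 of the 2 windows of Grb10, Meg3 and Calcr, and in the window of Copg2. A match is a description of these letters, not of binding.

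Of the 10 genes, 8 had at least 1 probe well above background on all 4 arrays, and 2 did not: Asb4 and Calcr. By probe, 12 of 20 were well above background on all 4 arrays, 6 on 1 to 3 arrays and 2 on none. No gene of the 8 that could be tested passed limma's test of haploid against diploid ESCs with Benjamini-Hochberg adjustment over all 17963 features at a threshold of 0.05, a test in which 0.111% of features passed (20 of 17963). Of the 8, 1 (Ppp1r9a) had an unadjusted p under 0.05, as did 2104 of all 17963 features. At the probe that stands for each gene, the 95% interval of the difference lay within 2-fold in both directions for 7 of the 8 genes. The exception was Ppp1r9a. Another Meg3 probe, A_52_P196568, had an interval from -0.03 to 4.54. The share of all features with an interval within 2-fold is not given, so the count does not set these genes apart. These intervals are for single genes and are not adjusted for the number of genes.

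**Figure D1:**
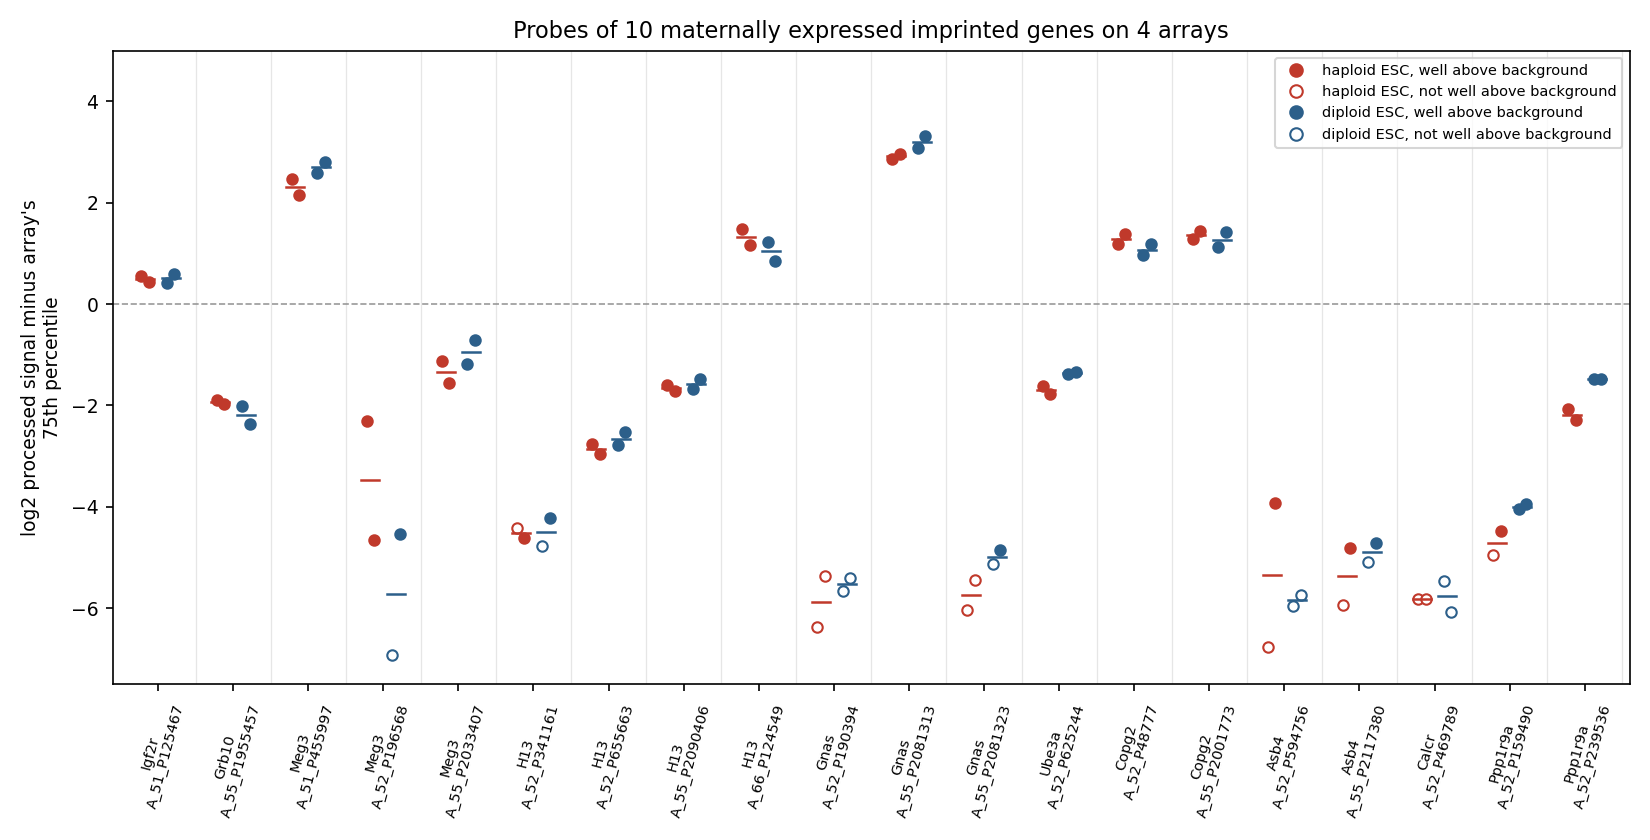
Signal of each of the 20 probes on each of the 4 arrays, as log2 of the processed signal minus the array's 75th percentile. Red points are haploid and blue points diploid ESCs, open points were not well above background, and bars are group means (n = 2 per group). The Meg3 probe A_52_P196568 ran from -2.30 to -6.92, while the other Meg3 probes each stayed within 1 log2 unit.

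Ppp1r9a encodes neurabin, a scaffold that binds actin and protein phosphatase 1, known mostly from synapses. The probe that stands for it, A_52_P239536 (NM_181595, chromosome 6), gave -2.07 and -2.29 in haploid ESCs and -1.47 and -1.47 in diploid ESCs. Both haploid values lay under both diploid values. The difference, haploid minus diploid, was -0.71 ± 0.18 (SE, n = 2 per group), or 1.63-fold, with a 95% interval from -1.13 to -0.28 and limma adjusted p = 0.215, so it did not pass the test. Its unadjusted p was 0.00621, and 2.86% of all features had a smaller one. Its other probe, A_52_P159490, gave -4.95 and -4.47 in haploid ESCs, where only replicate 2 was well above background, and -4.05 and -3.95 in diploid ESCs. It passed the filter only through the diploid arrays. Its difference was -0.71 ± 0.22 (adjusted p = 0.305 over all 21784 probes, a fit in which 0.161% of probes were called). With haploid replicate 1 not well above background, this value is not a measured fold and adds no support to the first probe. With 1 array left out at a time the first probe's difference ran from -0.82 to -0.60.

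Meg3 is a long noncoding RNA that is transcribed from the maternal copy of the Dlk1-Dio3 cluster on chromosome 12, at the head of a series of noncoding RNAs and microRNAs, and its loss in stem cell lines is a known form of imprinting failure. The probe that stands for the gene, A_51_P455997 (NR_027652), gave 2.46 and 2.15 in haploid ESCs and 2.59 and 2.81 in diploid ESCs. Meg3 was thus well above background, and over the array's 75th percentile, on all 4 arrays. The difference was -0.40 ± 0.20 (n = 2 per group, adjusted p = 0.490), with a 95% interval from -0.87 to 0.08. With 1 array left out it ran from -0.55 to -0.24. A second probe of the same transcript, A_55_P2033407, gave -1.13 and -1.56 in haploid ESCs and -1.19 and -0.71 in diploid ESCs, a difference of -0.40 ± 0.25. The haploid and diploid values did not overlap at the first probe and overlapped at the second.

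The third Meg3 probe, A_52_P196568, matches another transcript (NR_003633) and stood apart from both. It gave -2.30 and -4.65 in haploid ESCs and -6.92 and -4.54 in diploid ESCs, where diploid replicate 1 was not well above background. Haploid replicate 1 carried the high value, at 107 intensity units against 22.1 in haploid replicate 2, and 5.1 and 39.1 in the diploid arrays. It passed the filter only through the haploid arrays. The difference of 2.26 ± 0.95 did not pass (adjusted p = 0.441), its 95% interval ran from -0.03 to 4.54, and the groups overlapped. Haploid replicate 2 and diploid replicate 2 were close to each other at this probe.

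Igf2r encodes the cation-independent mannose 6-phosphate receptor, which carries lysosomal enzymes and removes the growth factor IGF2 from the cell surface. Its probe, A_51_P125467 (NM_010515, chromosome 17), is printed in 10 spots on each array, whose mean was used. Igf2r stood at 0.56 and 0.43 in haploid ESCs and at 0.42 and 0.60 in diploid ESCs, values that overlap. It differed by -0.01 ± 0.17 (adjusted p = 0.982), with a 95% interval from -0.44 to 0.41, or 0.738-fold to 1.33-fold.

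Grb10 encodes an adaptor that damps signalling by the insulin and IGF1 receptors. Its only probe, A_55_P1955457 (NM_010345, chromosome 11), gave -1.90 and -1.98 in haploid ESCs and -2.02 and -2.37 in diploid ESCs. The haploid values lay just above the diploid ones, 0.04 apart at the nearest, and the difference was 0.26 ± 0.19 (adjusted p = 0.612, 95% interval -0.21 to 0.72), or 0.09 to 0.43 with 1 array left out.

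H13 encodes signal peptide peptidase, which cuts leftover signal peptides in the membrane of the endoplasmic reticulum, and holds the retrogene Mcts2 in an intron. On chromosome 2, H13 makes transcripts that end before or after Mcts2, which is why its 4 probes are given apart. The probe of NM_001159551, A_66_P124549, gave 1.49 and 1.16 in haploid ESCs and 1.22 and 0.86 in diploid ESCs, which overlap (difference 0.28 ± 0.21, adjusted p = 0.612, or 0.11 to 0.46 with 1 array left out). Both probes of NM_010376 had differences of the other sign, -0.08 ± 0.18 at A_55_P2090406 and -0.21 ± 0.19 at A_52_P655663, with adjusted p of 0.873 and 0.685 in the fit over probes. The H13 probes thus gave no single sign. The probe of NM_001159552, A_52_P341161, was well above background on 1 haploid and 1 diploid array and was not tested. It gave -4.42 and -4.61 in haploid ESCs and -4.78 and -4.22 in diploid ESCs.

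Gnas is a complex locus on chromosome 2 whose transcripts share later exons but start at separate first exons, with the stimulatory G protein alpha subunit, a maternal neuroendocrine secretory protein and a paternal extra-large form among its products. The tables used here do not say which product an accession encodes, so the probes are named by accession. The probe of NM_001077510, A_55_P2081313, gave 2.87 and 2.97 in haploid ESCs and 3.08 and 3.32 in diploid ESCs. All haploid values lay under the diploid ones, and the difference was -0.28 ± 0.18 (adjusted p = 0.563, 95% interval -0.72 to 0.15), or -0.40 to -0.16 with 1 array left out. The probe of NM_201617 failed the background flag on all 4 arrays, at -6.37 and -5.37 in haploid and -5.66 and -5.40 in diploid ESCs. The probe of NM_019690 was well above background on diploid replicate 2 only, with -6.03 and -5.44 in haploid ESCs and -5.12 and -4.86 in diploid ESCs. Of the 3 accessions, then, 1 was well above background on all 4 arrays and the other two on at most 1.

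Ube3a encodes the ubiquitin ligase whose maternal loss causes Angelman syndrome in humans. Its probe, A_52_P625244 (NM_011668, chromosome 7), gave -1.62 and -1.77 in haploid ESCs and -1.37 and -1.34 in diploid ESCs. Neither haploid value reached the diploid values, and the difference was -0.34 ± 0.17 (adjusted p = 0.490, 95% interval -0.75 to 0.07), or -0.42 to -0.27 with 1 array left out.

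Copg2 encodes the gamma-2 subunit of the COPI coat, which moves vesicles from the Golgi to the endoplasmic reticulum, and lies beside Mest on chromosome 6. Both of its probes match NM_017478, and neither passed the test. A_55_P2001773 stood at 1.28 and 1.45 in haploid and 1.12 and 1.43 in diploid ESCs, a difference of 0.09 ± 0.19 (adjusted p = 0.859, 95% interval -0.37 to 0.56). A_52_P48777 stood at 1.18 and 1.39 in haploid and 0.97 and 1.18 in diploid ESCs, a difference of 0.22 ± 0.19 (adjusted p = 0.663 in the fit over probes). The groups overlapped at the first probe and not at the second.

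Asb4 and Calcr lie in the Peg10-Sgce cluster on chromosome 6, as Ppp1r9a does. Calcr encodes the calcitonin receptor, and its probe, A_52_P469789 (NM_007588), failed the background flag on all 4 arrays, with -5.82 and -5.82 in haploid ESCs and -5.46 and -6.08 in diploid ESCs. Asb4 encodes an ankyrin-repeat protein of a cullin ubiquitin ligase. Its probe A_55_P2117380 (NM_023048) was well above background on haploid replicate 2 and diploid replicate 2, with -5.94 and -4.81 in haploid ESCs and -5.08 and -4.72 in diploid ESCs. Its other probe, A_52_P594756, was well above background on haploid replicate 2 alone, with -6.76 and -3.92 in haploid ESCs and -5.95 and -5.74 in diploid ESCs. The Asb4 values overlapped between groups at both probes, and the 2 haploid arrays differed more from each other than the group means did. The lowest signal well above background was -4.66 and -5.05 on the haploid arrays and -4.60 and -5.39 on the diploid arrays, so these values give a bound and no fold was taken.

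**Figure D2:**
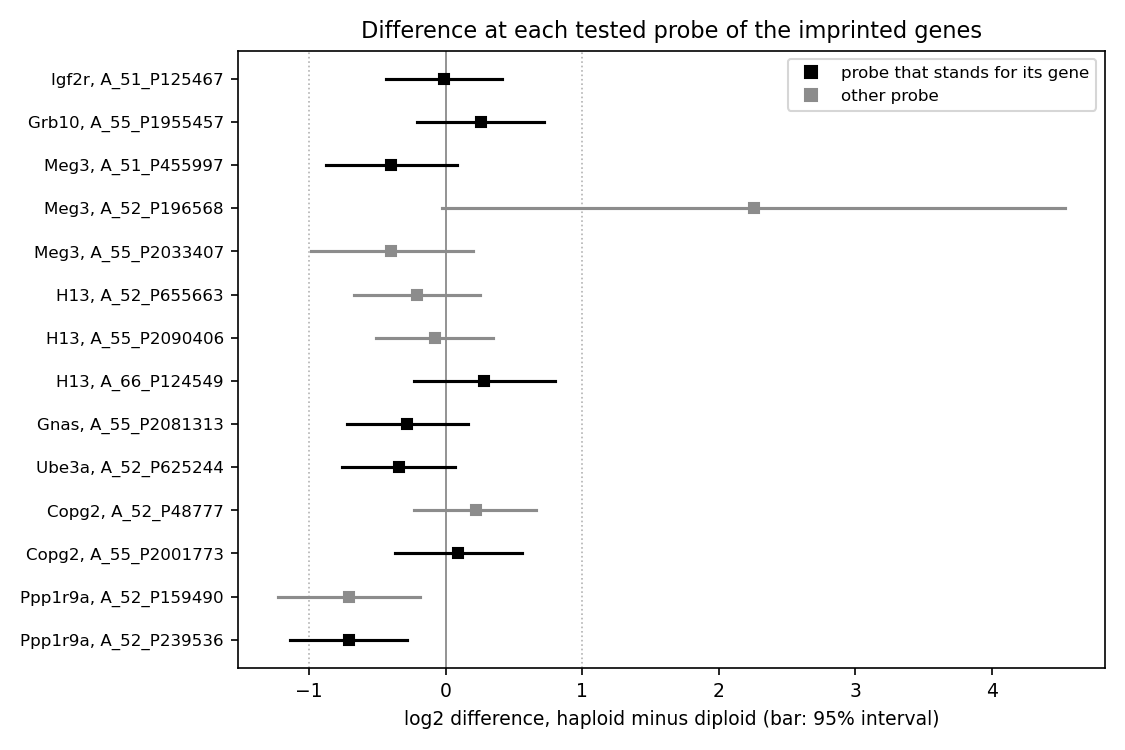
Log2 difference, haploid minus diploid, with its 95% interval from limma for each of the 14 probes that passed the filter. Dotted lines mark a 2-fold difference. The Ppp1r9a probe that stands for the gene lies at -0.71. Its other probe passed the filter only through the diploid arrays and was not well above background on haploid replicate 1. The Meg3 probe A_52_P196568 has the widest interval of these probes (-0.03 to 4.54), and passed the filter only through the haploid arrays.

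Among the 8 tested genes, both haploid values lay under both diploid values in 4 (Meg3, Gnas, Ube3a and Ppp1r9a), a pattern that 20.9% of all features showed. In 1 gene, Grb10, both haploid values lay above both diploid values, as in 26.0% of all features. The median difference of the 8 was -0.15, against 0.02 for all features, and turned to 0.03 with normexp, a model-based background correction, fitted on all spots. No test was made of the set, and differences of this size were not detectable as single genes with 2 arrays per group.

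The 10 genes sit in 8 imprinted clusters, and the RNA of paternally expressed neighbours in these clusters was read beside theirs. The state of the control regions was not measured. A list of 17 such neighbours had 14 on the array, of which 12 were well above background on all 4 arrays, 1 on some arrays and 1, Rtl1, on none. None of the 13 past the filter passed the test. Their median difference was 0.28, and it was -0.17 with normexp on all spots. Mest, beside Copg2, gave 2.67 and 2.19 in haploid ESCs and 2.08 and 2.28 in diploid ESCs. Snrpn, in the cluster of Ube3a, gave 1.58 and 2.45 in haploid ESCs and 1.48 and 1.19 in diploid ESCs. Signal of paternally expressed genes was present in both groups of parthenogenetic cells. The fibroblast markers, given above, were also present in both groups, and their part in these signals was not tested.

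Within clusters, the genes described here and their neighbours had differences of the same or of opposite sign, none of them past the test. At the Igf2r cluster Airn, the paternal antisense RNA that silences Igf2r in cis, differed by -0.31 ± 0.20 (adjusted p = 0.569) beside -0.01 for Igf2r. At the Grb10 cluster Ddc, the aromatic amino acid decarboxylase, differed by 0.47 ± 0.20 (adjusted p = 0.433) beside 0.26 for Grb10, and its other probe by -0.18. In the Dlk1-Dio3 cluster the maternal RNA Mirg differed by 0.12 ± 0.26 and the paternal genes Dlk1, a Notch-family ligand, and Dio3, a deiodinase, by 0.36 ± 0.18 and -0.03 ± 0.25, beside -0.40 for Meg3. The other Dlk1 probe differed by -0.04. Mirg was well above background on all 4 arrays, as Meg3 was. Mcts2, the retrogene within H13, differed by 0.28 ± 0.18 beside 0.28 for H13. Mcts2 is a retrocopy of Mcts1, and cross-hybridisation between them was not tested. Gnasas1, the antisense RNA of the Gnas locus, differed by -0.40 ± 0.20 beside -0.28 for Gnas. Gnasas1 was counted with the genes listed by position, given below, and not in the median of the paternally expressed neighbours.

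In the Snrpn-Ube3a cluster the paternal genes ran from -0.24 ± 0.20 for Peg12 to 0.98 ± 0.52 for Mkrn3, beside -0.34 for Ube3a. Mkrn3 gave -0.12 and -1.82 in haploid ESCs and -2.15 and -1.76 in diploid ESCs, so its value rested on haploid replicate 1, and its other probe differed by 0.07. Between them lay Ndn (-0.03 ± 0.18), Magel2 (0.52 ± 0.31) and Snrpn (0.68 ± 0.31). Atp10a, a maternally expressed gene in some tissues, differed by -1.36 ± 0.62. It gave -4.83 and -4.00 in haploid ESCs and -2.09 and -4.03 in diploid ESCs, so diploid replicate 1 set the difference. Atp10a passed the filter only through the diploid arrays, with 1 of 2 haploid arrays well above background, so this value is not a measured fold. In the Peg10-Sgce cluster Sgce differed by 0.04 ± 0.25, beside -0.71 for Ppp1r9a. Peg10 passed the filter only through the haploid arrays, with 1 of 2 diploid arrays well above background (0.86 ± 0.27, adjusted p = 0.314), and its other probe differed by -0.03. Pon3 gave -0.51 and -2.68 in haploid ESCs and -2.40 and -2.77 in diploid ESCs (0.99 ± 0.64). Mkrn3 and Pon3 share the pattern of the third Meg3 probe, with haploid replicate 1 above the other 3 arrays. Of 10 other maternally expressed genes of these clusters with a probe, 2 were well above background on all 4 arrays, 2 on some and 6 on none.

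**Figure D3:**
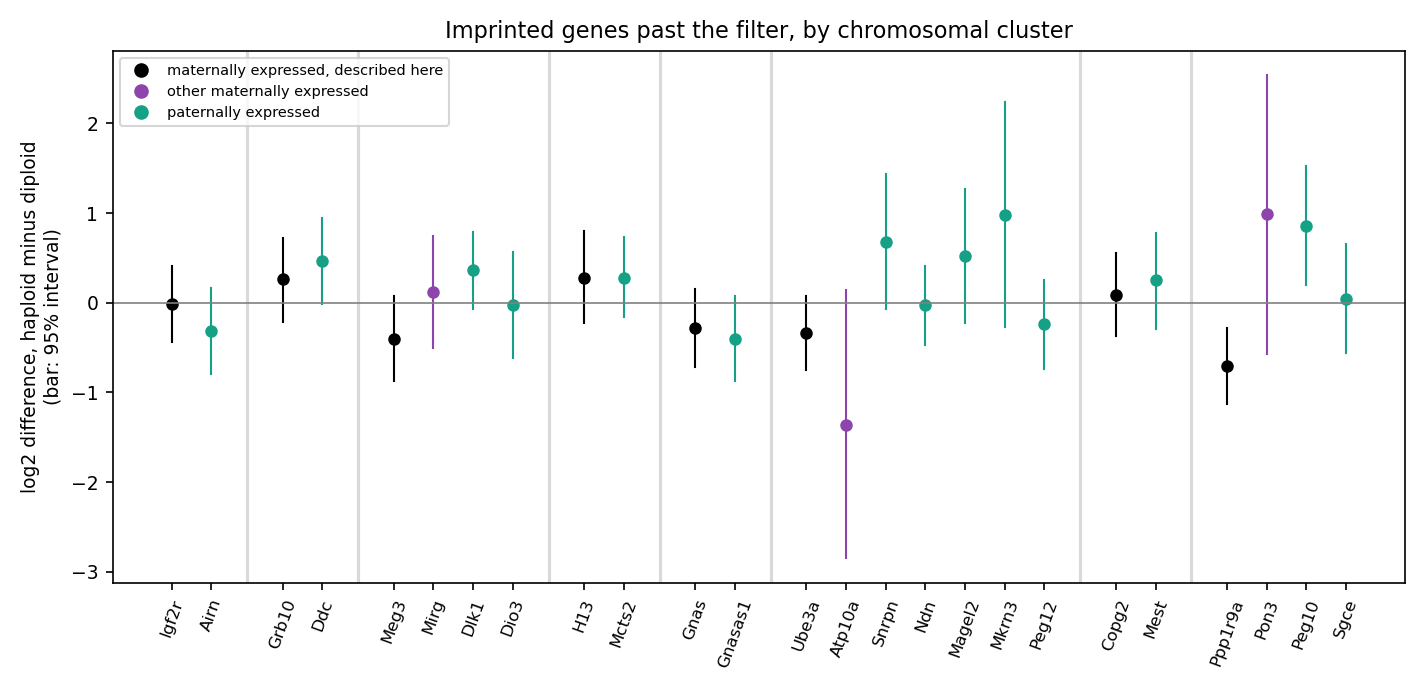
Log2 difference, haploid minus diploid, with its 95% interval for the imprinted genes past the filter, grouped by cluster from left to right. Black points are genes described here, purple points other maternally expressed genes and green points paternally expressed ones. The intervals of Ppp1r9a (-0.71) and of Peg10 do not hold 0. Peg10 (0.86) is drawn from a probe that passed the filter only through the haploid arrays, and Atp10a (-1.36) from a probe that passed only through the diploid arrays.

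Genes that make or keep imprints were measured as a list of 26, of which 23 passed the filter and none passed the test (median -0.04, or 0.19 with normexp on all spots). Nlrp5, a maternal-effect gene of the egg, gave -1.55 and -1.84 in haploid ESCs and -0.90 and -0.88 in diploid ESCs (-0.80 ± 0.18, adjusted p = 0.193). Dnmt3l, the cofactor that guides imprint methylation in germ cells, differed by 0.42 ± 0.18, and Kdm1b, a histone demethylase needed for imprints in the egg, by -0.38 ± 0.17. Zfp445, also in the list, differed by -0.53 ± 0.23. Of the 23 tested, 9 had differences above 0 and 14 below.

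The genes whose products work with those of the 10 imprinted genes were listed as well, and none passed the test. Around Igf2r and Grb10, 10 of 12 tested genes lay below 0 (median -0.19), against 8402 of 17963 features. Grb7, a paralog of Grb10, differed by -0.60 ± 0.17 (adjusted p = 0.258) beside 0.26 for Grb10, and the other paralog, Grb14, by 0.42 ± 0.19. Igf1r, the receptor that GRB10 binds, gave -2.38 and -2.91 in haploid ESCs and -2.02 and -0.85 in diploid ESCs (-1.21 ± 0.40, adjusted p = 0.330). Around Gnas and Calcr, 9 of 15 lay below 0 (median -0.10, or 0.06 with normexp that left out high-background spots). Ramp3, which changes the calcitonin receptor's ligand choice, gave 0.19 and 0.16 in haploid ESCs and -0.53 and -0.70 in diploid ESCs (0.79 ± 0.17, adjusted p = 0.183), while Calcr itself was not well above background.

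The coatomer partners of Copg2 kept within a narrow range, from -0.10 (Copb1) to 0.23 (Copb2) over 9 genes, with a median of 0.02 that was -0.02 without diploid replicate 2. The ubiquitin ligase partners of Ube3a and Asb4 had a median of 0.11 over 11 genes, which was -0.07 with quantile normalization, -0.06 with cyclic loess, -0.08 with the deposited value table and -0.05 without diploid replicate 2. Herc2, which binds UBE3A, differed by -0.36 ± 0.18 beside -0.34 for Ube3a. The family of H13 and the signal peptidase had a median of 0.22 over 8 genes, from -0.33 (Sppl2a) to 0.46 (Sec11c), beside 0.28 for H13. The protein phosphatase 1 partners of Ppp1r9a ran from -0.22 (Ppp1r8) to 0.25 (Ppp1ca) over 6 genes with a median of 0.01, which was below 0 in 5 other settings and -0.03 at the lowest. Of 96 genes beside the 10 in the RefSeq order, 29 were on the array and 15 were tested, with none past the test and a median of 0.08 (-0.07 with normexp on all spots, -0.08 without diploid replicate 2).

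Markers of other cell types were read beside these values, and none of their genes passed the test. The 10 tested fibroblast markers had a median of 0.25, which normexp on all spots turned to -0.55, and all 12 were well above background on at least 1 array. Trophectoderm markers summed to 17.9 and 14.8 times the percentile in haploid ESCs and 13.1 and 13.7 in diploid ESCs, with Elf5 on no array. Of the 5 tested, 3 had differences above 0 and 2 below (median 1.02): Krt18 (1.23 ± 0.17, adjusted p = 0.0781), Krt8 (1.15) and Gata3 (1.02) lay above, and Eomes (-0.43) was among those below. Primitive endoderm markers summed to 0.138 and 0.21 in haploid ESCs and 0.204 and 0.228 in diploid ESCs, with Dab2, Foxa2 and Pdgfra on no array. Neuron markers, of interest because Ube3a and Grb10 are imprinted differently in neurons and Ppp1r9a is known from synapses, summed to 6.73 and 6.41 in haploid ESCs and 5.18 and 4.73 in diploid ESCs, with Dcx and Syt1 on no array. Tubb3, at 2.34 and 2.18 in haploid ESCs and 1.84 and 1.53 in diploid ESCs, made up most of each linear sum. Of the 6 tested, 3 had differences above 0, Tubb3 (0.57) among them. The other 3 lay below, among them Neurod1 (-1.78) and Elavl3 (-0.48), and the median was -0.02. Neurod1, at -5.31 and -5.98 in haploid ESCs, passed the filter only through the diploid arrays, so its value is not a measured fold. The part of these cell types in the values of the 10 imprinted genes was not tested.

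**Figure D4:**
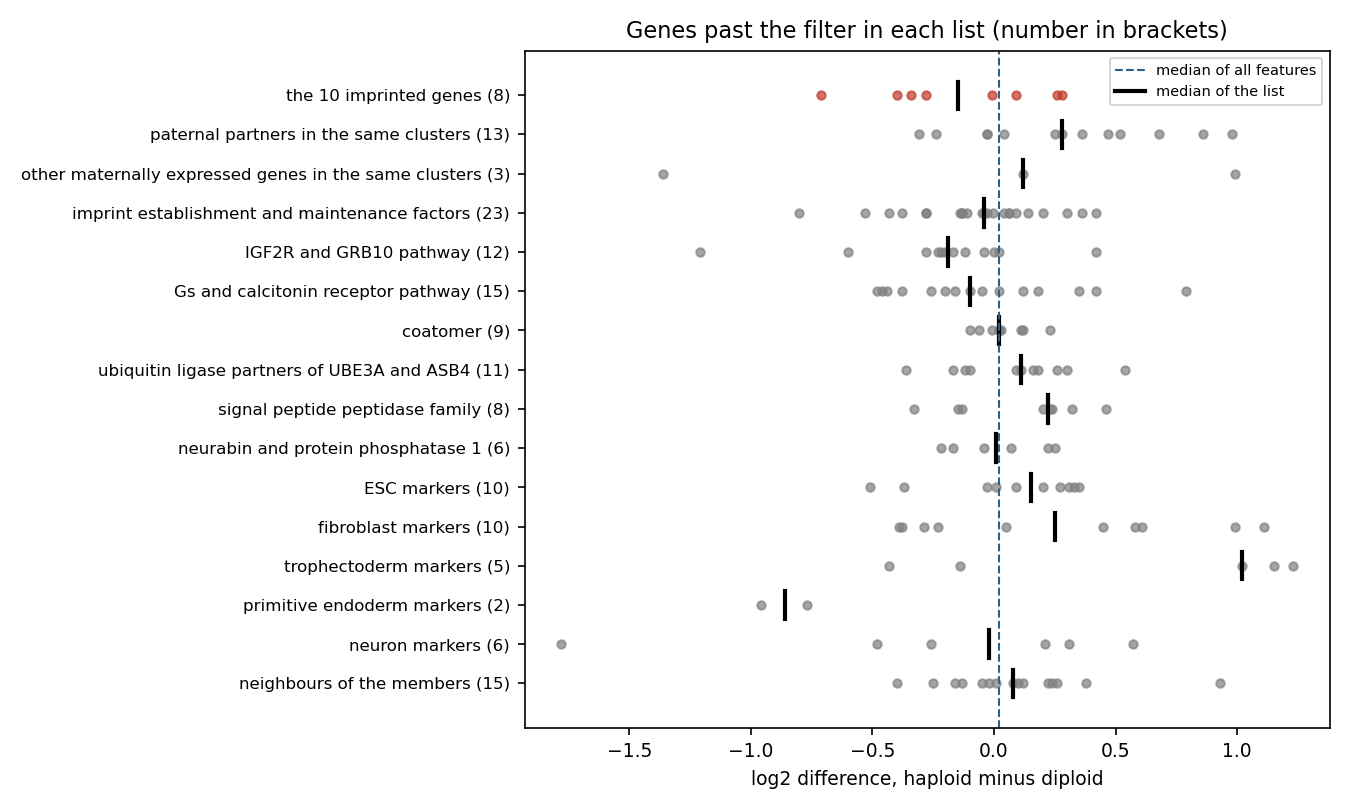
Log2 difference, haploid minus diploid, of the genes past the filter in each list, with the number of genes in brackets. Black bars are list medians and the dashed line is the median of all features (0.02). The 8 tested imprinted genes lie between -0.71 and 0.28.

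Of the 15 other settings, 10 moved the estimate of Ppp1r9a and 9 that of Ube3a, and the sign held in these. The rest, among them another filter and another prior, left the estimate as it was. Ppp1r9a lay between -0.83 and -0.44 and Ube3a between -0.66 and -0.16. Grb10, Meg3, H13, Gnas and Copg2 changed sign in 1 setting each, and Igf2r, whose difference was near 0, in 3.

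**Figure D5:**
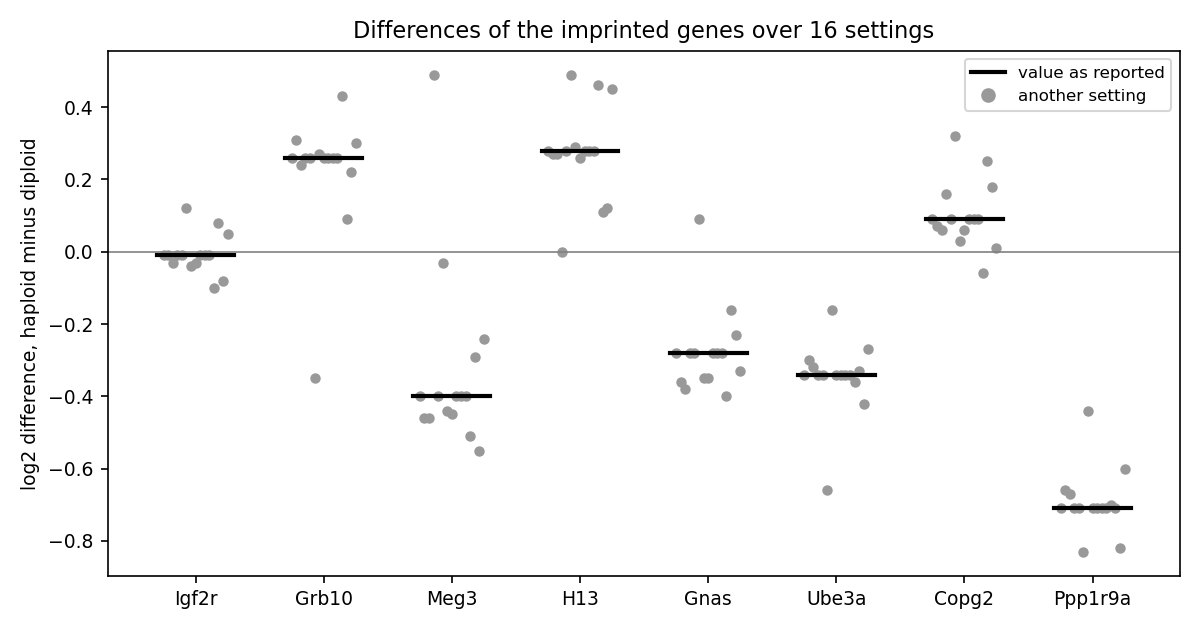
Log2 difference, haploid minus diploid, of each tested gene as reported (black bar) and in each of the 15 other settings (grey points, of which those on the bar left the estimate as it was). All points of Ube3a and Ppp1r9a lie below 0, and the Meg3 point at 0.49 is the mean over its 3 probes.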

How the data were processed

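Cy3-labelled RNA of each sample went onto its own array, per the labels' protocols. The scanner output came from Agilent's Feature Extraction software, version 11.0.1.1, per the file headers. Its processed signal is an intensity on a linear scale, background-subtracted by that software. The value table that the authors deposited also holds intensity, brought to nearly the same distribution on each array by steps not given in the sources used here. It served as an alternative.

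Control and outlier spots were dropped, repeat spots averaged, and the log2 signal reduced by each array's 75th percentile. Accessions matched to RefSeq transcripts (GRCm38.p6) named 26037 of 39409 probes. Printed coordinates are those of the RefSeq windows, while the array's design names mm9. Probes were kept if the scanner flagged them well above background on each array of either group. The kept probe with the highest mean stood for its gene (17963 features), and a further fit took each kept probe (21784).

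The groups were compared by limma 3.58.1 in R 4.3.3 (two-sided moderated test, Benjamini-Hochberg adjustment over all features). Errors are limma's moderated SE of the difference, n = 2 per group, and the number of arrays limits the precision. This SE draws on the spread of all features as well as on that of a gene's own arrays. The fit was tested on simulated data. Tables and figures used Python 3.11.15, pandas 2.3.3, numpy 2.4.6 and matplotlib 3.10.9. Alternatives covered the background correction, normalization, filter, prior, probe summary, replicate block and each array left out.

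The 10 genes and all lists were chosen with earlier results of these data known. By rule, the text could name the 10 genes with all probes, every tested gene of the same-cluster lists, the 4 genes of smallest p in each other list, and 6 ESC and fibroblast markers. Cell type markers on no array are named besides.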

Additional observations from a re-analysis of the deposited data

How the results depend on the processing

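None of the 8 tested genes was called in any of the 15 other settings. Asb4 was tested in 3 of these and Calcr in 1, with adjusted p from 0.658 to 0.959. The smallest adjusted p of a tested one was 0.0961, for Ppp1r9a with a prior variance that had a trend and robust fitting. At an unadjusted p under 0.05, limma gave 1 of the 8 (Ppp1r9a) with the reported settings, beside 2104 of 17963 features. It gave 3 (Gnas, Meg3 and Ppp1r9a) with normexp that left out high-background spots, beside 2356 features. With normexp on all spots it gave 0, beside 121 features. Taking the mean of a gene's probes turned Meg3 to 0.49, since it adds the third Meg3 probe, and H13 to -0.0016, since it adds probes of the other sign. Normexp on all spots, which moved the median of all features from 0.02 to -0.10, turned Grb10 to -0.35, Gnas to 0.09 and Igf2r to 0.12. With 1 array left out, Copg2 ran from -0.06 (without diploid replicate 1) to 0.25, and Igf2r from -0.10 to 0.08 (without diploid replicate 2), with 0.05 without haploid replicate 2. The median of the tested genes moved from -0.15 to -0.01 with the mean of probes and 0.03 with normexp on all spots, and with 1 array left out it ran from -0.36 (without diploid replicate 1) to -0.04 (without diploid replicate 2). The -0.36 includes Asb4, which passes the filter there, and over the same 8 genes it was -0.23.

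Over all features 20 were called. The count was 0 with a common floor, with cyclic loess, without a filter and with normexp on all spots (2068, 2286, 1660 and 121 at an unadjusted p under 0.05), 4 with the deposited value table, 5 with quantile normalization, 82 with probes well above background on all 4 arrays, 122 with normexp that left out high-background spots, and 425 with a trend and robust prior. With 1 array left out it ran from 0 (without diploid replicate 1, with 2220 at an unadjusted p under 0.05) over 60 (without diploid replicate 2, 58 of them lower) and 242 (without haploid replicate 1) to 439 (without haploid replicate 2). With the replicate number as a block it was 2. The labels give no pairing of samples of the same number, and the deviations of such samples from their group means correlated at 0.05 across features. That value cannot show whether same-numbered lines share an origin. The normexp settings were chosen after seeing the data, since the scanner files hold a median and no mean spot signal, so the planned version on the mean was not run. The cause of these changes was not tested.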
